A study of Saccharomyces cerevisiae with 4 samples.

Results

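The genes described here encode the enzymes that make citrate and carry it to 2-oxoglutarate in Saccharomyces cerevisiae, together with the transcription factors of the retrograde pathway. The members were chosen by name, with the difference between the strains in view: the citrate synthases CIT1 and CIT2, the aconitase ACO1, the subunits IDH1 and IDH2 of the NAD-dependent isocitrate dehydrogenase, the NADP-dependent isocitrate dehydrogenases IDP1, IDP2 and IDP3, and the regulators RTG1 and RTG3. All 10 were found by gene symbol, each by 1 probe set, among 5343 genes named on the array. Wild-type cells (WT, the diploid strain BY4743) and nps1-13 mutant cells (the strain BYI-3, given as a homozygous diploid) were pre-grown in glucose medium (YPD) at 28°C and moved to medium with ethanol and glycerol as carbon sources (YPEG) for 4 h. Transcripts were measured in total RNA with Affymetrix Yeast Genome 2.0 arrays, of which each strain had 2. Both strains carry his3, leu2 and ura3 mutations in both copies. BY4743 is heterozygous for the met15 and lys2 deletions, while BYI-3 lacks MET15 altogether. NPS1, also called STH1, encodes the ATPase of the chromatin-remodeling complex RSC, and the nps1-13 allele has substitutions in the bromodomain. Whether the arrays of a strain came from separate cultures was not given in the sources used here, and the spread between arrays may be technical.

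In mitochondria, citrate synthase condenses acetyl-CoA with oxaloacetate, aconitase isomerizes citrate, and the 2-subunit enzyme Idh1/Idh2 oxidizes isocitrate to 2-oxoglutarate while making NADH. Yeast also holds a peroxisomal citrate synthase, Cit2, which feeds the glyoxylate cycle, and NADP-dependent isocitrate dehydrogenases in mitochondria (Idp1), the cytosol (Idp2) and peroxisomes (Idp3). The peroxisomal enzyme supplies the NADPH that the oxidation of unsaturated fatty acids needs. Rtg1 and Rtg3 form a heterodimer that activates CIT2 in cells with impaired respiration, and keeps CIT1, ACO1, IDH1 and IDH2 expressed when respiration is lost.

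Several facts of the whole series bear on these genes. The WT arrays had median signals of 3085 and 2802 and the nps1-13 arrays 2186 and 2047, so that the median gene had a log2 difference of -0.41 between the strains as deposited. Values are therefore given as deposited and with each array centred on its median, which adds 0.47 to every log2 difference. The shift was smaller for bright genes: the 497 genes with a mean signal of at least 10000 had a median log2 difference of -0.18 as deposited and 0.30 when centred. Since 7 of the 10 members are that bright, values after cyclic loess normalization, which lets the shift vary with the signal, are given as well, and there the median of the bright genes was 0.015. The strain markers did not all follow the listed genotypes. MET17 (MET15) was at 3961 ± 110 in WT (mean signal and SD, n = 2 arrays here and in what follows) against 16.9 ± 1.2 in nps1-13, where the gene is deleted. LEU2, deleted in either strain by the listed genotypes, was at 25.6 ± 16.3 in WT against 4336 ± 156 in nps1-13. The transcript a1 of the mating-type locus, measured as HMRA1, was at 1748 ± 210 in WT and 3.50 ± 3.68 in nps1-13, and the alpha-factor gene MF(ALPHA)1 at 43.3 ± 2.4 and 6169 ± 84.4. The alpha-cell gene STE3 was at 94 ± 12 in WT and 4072 ± 59 in nps1-13, and the haploid-specific gene STE18 at 21.6 ± 11.6 and 1463 ± 221. The nps1-13 arrays thus showed transcripts of alpha cells, whereas BYI-3 is listed as a diploid with both mating types. STH1 itself, which carries point mutations and is not deleted, was at 4695 ± 455 and 6972 ± 633, which does not check the allele. Both arrays labelled nps1-13, called nps1-13 here by that label, showed the same markers, so no comparison without it could be made, and the nps1-13 allele and other differences between the strains cannot be told apart.

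The gene pair of the mitochondrial NAD-dependent enzyme was lower in nps1-13, and the gene of the peroxisomal NADP-dependent enzyme was higher. Because these differences were among the values that chose the members, they are given as a description, without a test. IDH2 (YOR136W), the catalytic subunit, had signals of 14789 and 13327 in WT and 6674 and 6270 in nps1-13. IDH1 (YNL037C), the regulatory subunit, had 15355 and 13491 in WT and 7899 and 7812 in nps1-13. For both subunits each mutant array lay below each WT array. The log2 difference of IDH2 was -1.12 as deposited, -0.64 when centred and -0.87 after cyclic loess normalization, and over the 4 pairings of a mutant with a WT array it ran from -0.65 to -0.64 when centred. For IDH1 these differences were -0.87, -0.40 and -0.64, with a range of -0.46 to -0.34 when centred. Ranked by log2 difference among the 497 bright genes, IDH2 was number 2 from the lowest and IDH1 number 5. Among all 5343 genes, IDH2 was number 672 from the lowest and IDH1 number 1163. Bright genes were picked by their mean over all 4 arrays, so genes much lower in nps1-13 can be missing from that set. Such ranks do not change when an array is shifted as a whole.

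IDP3 (YNL009W) had signals of 4135 and 3662 in WT and 11051 and 10903 in nps1-13. Both mutant arrays were thus far above both WT arrays. Its log2 difference was 1.5 as deposited, 1.97 when centred (1.92 to 2.03 over the 4 pairings) and 1.81 after cyclic loess normalization, which is a 2.82-fold higher level as deposited and a 3.92-fold higher level when centred. With a rank of 54 from the highest among 5343 genes, it had the largest difference of the 10 members. Among mitochondrial genes, the study lists IDP3 as lower in the mutant. The log2 change it gives for IDP3 is close in size to the centred 1.97 here, but of opposite sign. The direction of IDH2 here is also opposite to the ratio the study lists for it. Probe sets were named here by the platform annotation, and the cause of these conflicts was not tested.

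**Figure D1:**
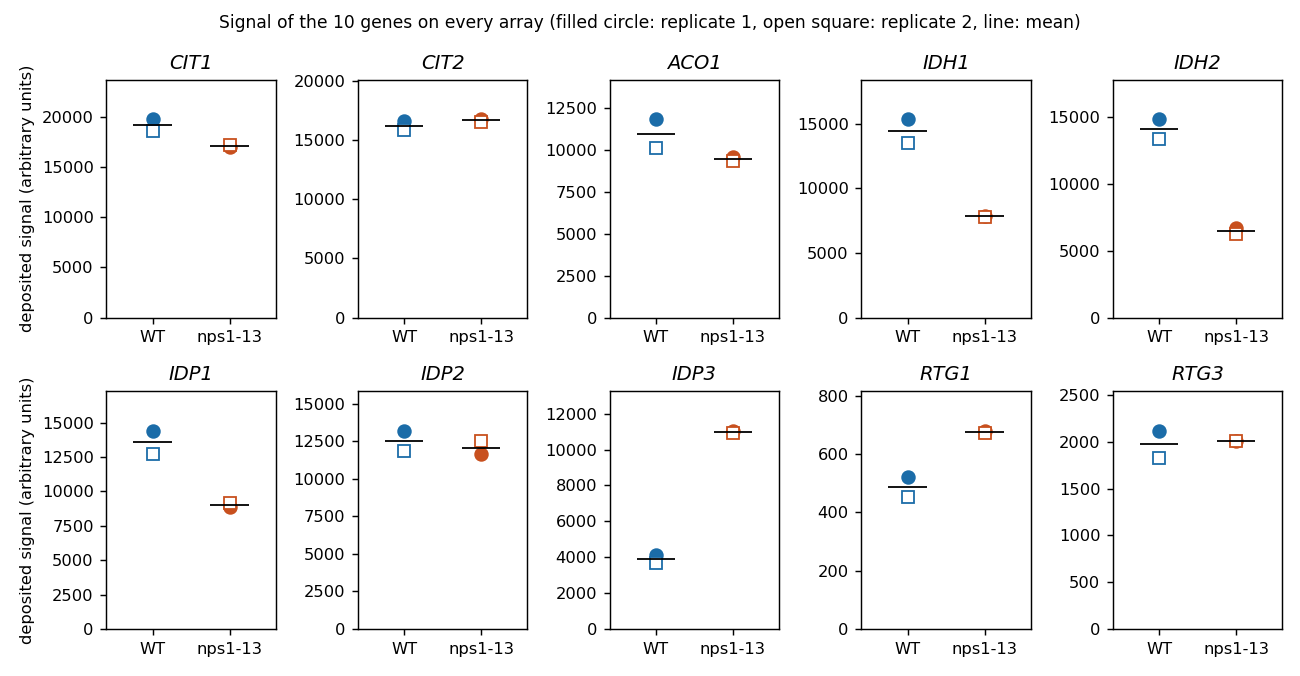
Deposited signal, in arbitrary units, of each of the 10 genes on the 2 WT (blue) and 2 nps1-13 (orange) arrays, with a line at the mean of each strain; each panel has its own axis from 0. IDH1 and IDH2 lie lower and IDP3 lies higher on both nps1-13 arrays than on both WT arrays, while CIT2, IDP2 and RTG3 overlap between the strains.

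The other NADP-dependent enzymes differed from IDP3. IDP1 was lower in nps1-13, while IDP2 was higher on all scales but the deposited one, and by less than IDP3. The mitochondrial isozyme gene IDP1 (YDL066W) had signals of 14417 and 12719 in WT and 8845 and 9183 in nps1-13, with both mutant arrays below both WT arrays. Its log2 difference was -0.59 as deposited, -0.11 when centred and -0.36 after cyclic loess normalization, so that its size depended on the scale. Leaving out 1 array in turn moved the centred value to between -0.19 (without nps1-13 replicate 2) and -0.038 (without nps1-13 replicate 1). IDP2 (YLR174W), whose product is cytosolic, had 13194 and 11827 in WT and 11637 and 12507 in nps1-13. Here the deposited signals of the strains overlapped, and the log2 difference was -0.05 as deposited, 0.42 when centred and 0.16 after cyclic loess normalization. Among the 497 bright genes, IDP1 was number 32 from the lowest and IDP2 number 375.

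Among the enzymes that make and isomerize citrate, CIT1 (YNR001C), the mitochondrial citrate synthase gene, had signals of 19787 and 18673 in WT and 17030 and 17227 in nps1-13. These are close to the highest signals of the arrays, which ran from 20490 to 23318, and whether the signal still follows the transcript level there was not tested. The log2 difference of CIT1 was -0.17 as deposited, 0.31 when centred and -0.018 after cyclic loess normalization, close to the median of the bright genes on each scale. CIT2 (YCR005C), the gene of the peroxisomal isozyme and the best known target of Rtg1 and Rtg3, had 16596 and 15801 in WT and 16736 and 16556 in nps1-13, which overlap. Its log2 difference was 0.040 as deposited, 0.51 when centred and 0.20 after cyclic loess normalization, number 425 from the lowest of the 497 bright genes. ACO1 (YLR304C), the mitochondrial aconitase gene, had 11805 and 10101 in WT and 9535 and 9325 in nps1-13, and log2 differences of -0.21, 0.26 and 0.030 on the same scales, number 213 of the bright genes. CIT1 and ACO1 therefore changed sign between scales and lay near the middle of genes of like signal, unlike the IDH pair that acts after them.

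Neither of the retrograde regulators was lower in nps1-13 on any scale. RTG1 (YOL067C) had signals of 520 and 452 in WT and 680 and 672 in nps1-13, with both mutant arrays above both WT arrays. Its log2 difference was 0.48 as deposited, 0.96 when centred (0.88 to 1.03 over the 4 pairings) and 1.14 after cyclic loess normalization, number 280 from the highest among 5343 genes. RTG3 (YBL103C), its partner, had 2121 and 1831 in WT and 2016 and 2007 in nps1-13, where the WT arrays enclose the mutant arrays. Its log2 difference was 0.030 as deposited, 0.50 when centred and 0.56 after cyclic loess normalization.

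**Figure D2:**
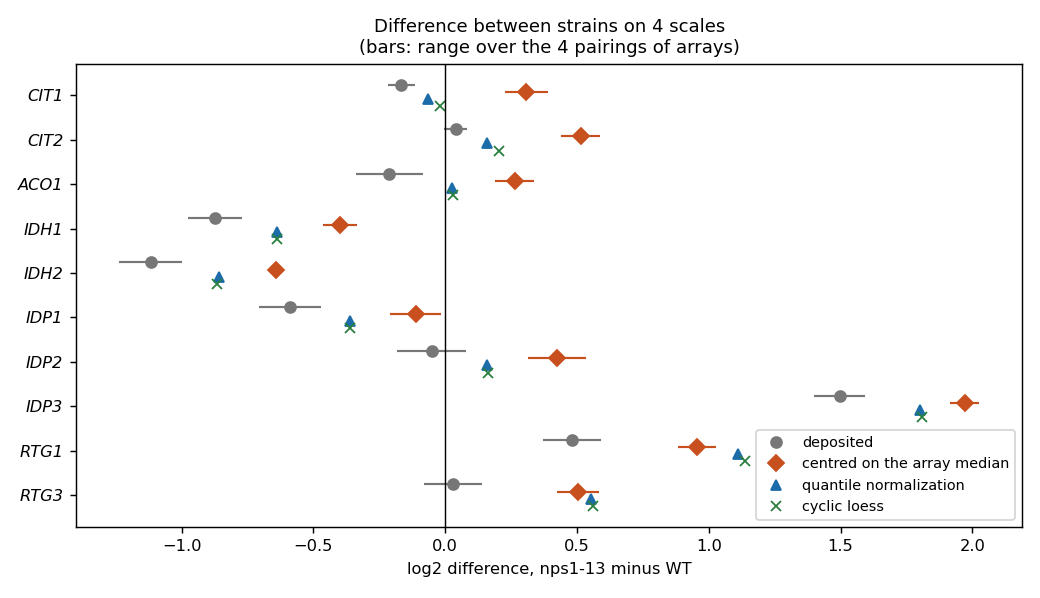
Log2 difference, nps1-13 minus WT, of each gene on 4 scales: deposited signals, arrays centred on their medians, quantile normalization and cyclic loess normalization; bars give the range over the 4 pairings of arrays for the first 2 of them. IDH1, IDH2 and IDP1 lie below 0 on all 4 scales and CIT2, IDP3, RTG1 and RTG3 above 0, whereas CIT1, ACO1 and IDP2 change sign.

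Within a strain, the members were measured closely. The 2 WT arrays differed, when centred, by 0.011 to 0.086 on the log2 scale over the 10 genes, and the 2 nps1-13 arrays by 0.0045 to 0.20, the largest being IDP2. The median of these gaps was 0.052 in WT and 0.079 in nps1-13, against 0.055 and 0.075 over all genes. With 2 arrays per strain, an exact permutation test of a single value cannot give a two-sided p below 0.333. In the fit across all genes by limma at an adjusted p under 0.05, 7 members were called higher and 2 lower when centred, on arrays where 42.6% of all genes were called higher and 34.7% lower. As deposited, 2 were called higher and 5 lower, where 9.41% of all genes were higher and 64.3% lower. The counts were 5 higher and 3 lower both after quantile normalization, against 36.4% and 37.7% of all genes, and after cyclic loess normalization, against 36.8% and 36.7%. When centred, the arrays of the strains did not overlap for 7 higher and 3 lower members, against 48.8% and 40.4% of all genes, and as deposited for 2 higher and 5 lower members, against 13.6% and 72.5%. Since the rule used this contrast, nothing is read from these counts. The median log2 difference of the members was 0.37 when centred, beside 0.065 for all genes and 0.30 for the bright genes.

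**Figure D3:**
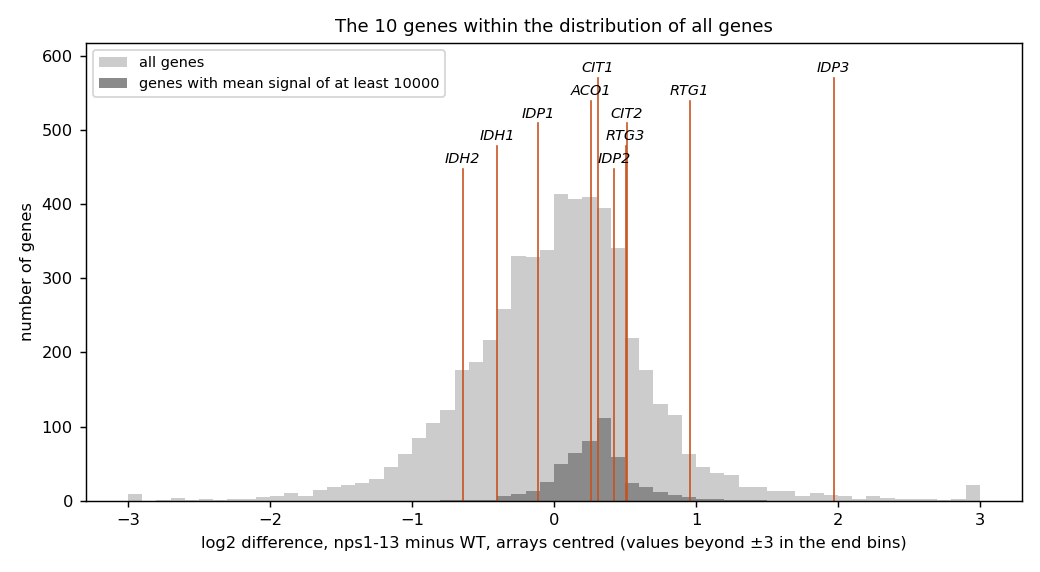
Number of genes by log2 difference, nps1-13 minus WT, with the arrays centred, for all 5343 genes (light) and for the 497 genes with a mean signal of at least 10000 (dark), with a line at each of the 10 members. CIT1 and ACO1 stand near the centre of the bright genes, IDH1 and IDH2 at their lower edge and IDP3 in the upper tail of all genes.

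The log2 ratio of 2 probe sets on an array is no ratio of transcript numbers, but its change between strains does not depend on a factor that scales a whole array. This change was computed for 8 pairs of members, as a description. A large change of the IDH2 to IDP3 ratio was set by the choice of members, which used their opposite directions. The log2 ratio of IDH2 to IDP3 was 1.84 and 1.86 in WT and -0.73 and -0.80 in nps1-13, a change of -2.61, so that the ratio was 6.12-fold lower in the mutant. That of IDP1 to IDP3 changed by -2.08 and that of IDP2 to IDP3 by -1.55. Among the other pairs the changes were smaller: the ratio of IDH2 to IDP2 changed by -1.07 and that of IDP1 to IDP2 by -0.54. The ratio of CIT1 to CIT2 was 0.25 and 0.24 on the log2 scale in WT and 0.025 and 0.057 in nps1-13, a change of -0.21. The subunits of the NAD-dependent enzyme did not change equally either, since the log2 ratio of IDH1 to IDH2 went from 0.054 and 0.018 to 0.24 and 0.32, a change of 0.24. For each of the 8 pairs the nps1-13 arrays lay on 1 side of the WT arrays. The share of all gene pairs for which this holds was not computed. Among single genes when centred, 48.8% lay higher and 40.4% lower without overlap. The pairs also share genes, so nothing is read from this count.

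**Figure D4:**
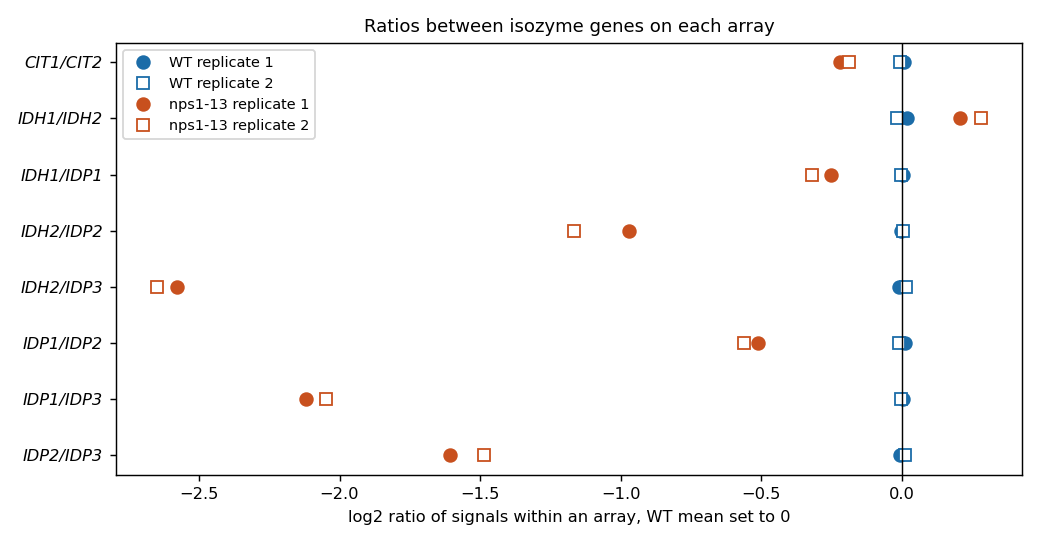
Log2 ratio of the signals of 2 genes on each array, with the WT mean of each ratio set to 0, for the 2 WT (blue) and 2 nps1-13 (orange) arrays. The ratio of IDH2 to IDP3 shows the largest change, -2.61, and that of CIT1 to CIT2 the smallest, -0.21. The opposite directions of the IDH genes and IDP3 were among the values that chose the members.

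Genes with a pattern over the 4 arrays like that of IDH2 and IDP3 were sought among all other genes by the root mean square distance of their centred log2 signals, each set to 0 at its WT mean. Closest to IDH2 were MPP6, a cofactor of the nuclear exosome, with a distance of 0.011, CTK3, a subunit of the kinase of the RNA polymerase II tail, with 0.012, and STU2, a microtubule plus-end protein, with 0.015. Closest to IDP3 were GND2, the minor isozyme of 6-phosphogluconate dehydrogenase, with 0.037, XBP1, a transcriptional repressor of stress conditions, with 0.037, and SPS100, a gene of spore wall maturation, with 0.062. With 4 arrays in 2 strains this likeness rests mainly on the size of the difference between the strains.

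Other genes of the pathway were then compared in the same fit, in lists that hold 66 measured genes. When centred, 46 were higher and 9 lower in nps1-13 and 11 did not pass the test, whereas 16 were higher and 31 lower as deposited, and 35 higher and 20 lower after cyclic loess normalization. Of all genes, 42.6% were higher and 34.7% lower when centred, 9.41% and 64.3% as deposited, and 36.8% and 36.7% after cyclic loess normalization. Of the 66 genes, 30 have a mean signal of at least 10000. Genes named here beyond those of the fixed rule, namely MDH3, OAC1, UTR1, POS5, ECI1, POX1, SPS19 and ODC2, were chosen after their values were seen.

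The genes that work beside IDP3 in the peroxisome were higher as a group. Of 10 genes of peroxisomal fatty acid oxidation and its transporters, all 10 rose when centred and after cyclic loess normalization, and 9 as deposited, where SPS19 was at -0.02. The shares of all genes called higher on these scales were 42.6%, 36.8% and 9.41%. Their median log2 fold change was 1.17 when centred and 0.69 as deposited, against medians of 0.065 and -0.41 for all genes. DCI1, which encodes a protein related to the enoyl-CoA isomerase, had signals of 3371 and 3325 in WT and 6825 and 6397 in nps1-13, a log2 fold change of 1.46 when centred (SE 0.05, limma adjusted p = 2.2e-08). The thiolase gene POT1 rose by 1.38 (SE 0.07, limma adjusted p = 1.0e-07), the enoyl-CoA isomerase gene ECI1 by 1.34 and the acyl-CoA oxidase gene POX1 by 1.32. SPS19, the 2,4-dienoyl-CoA reductase gene whose product uses NADPH in the peroxisome, had the smallest value of the list, 0.45 when centred. MDH3, the peroxisomal malate dehydrogenase gene, went the other way, with signals of 11880 and 11197 in WT and 6725 and 6583 in nps1-13, and fell by 0.32 when centred, 0.79 as deposited and 0.53 after cyclic loess normalization.

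Among the other genes of NADPH supply and NAD phosphorylation, 4 of 8 rose and 4 fell when centred (2 and 5 as deposited, 2 and 3 after cyclic loess normalization). The shares of all genes were 42.6% higher and 34.7% lower when centred (9.41% and 64.3% as deposited, 36.8% and 36.7% after cyclic loess normalization). GND2 had signals of 3761 and 3423 in WT and 9905 and 10435 in nps1-13, a log2 fold change of 1.98 when centred (SE 0.06, limma adjusted p = 6.8e-09). GND1, the major isozyme of the same step of the pentose phosphate pathway, had 8121 and 7769 in WT and 1751 and 1703 in nps1-13, a log2 fold change of -1.73 (SE 0.05, limma adjusted p = 5.5e-09). Of the NAD and NADH kinase genes, POS5, whose product is mitochondrial, rose by 1.12 when centred, and UTR1, whose product is cytosolic, fell by 0.54. GND1 and UTR1 were lower and GND2 and POS5 higher on the deposited scale too.

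The lists of glutamate and glutamine metabolism and of mitochondrial carriers held genes called in both directions when centred. Of all genes, 42.6% were higher and 34.7% lower when centred, and 9.41% and 64.3% as deposited. Of the 5 genes of glutamate and glutamine metabolism, 4 rose and 1 fell when centred (1 and 2 as deposited). GDH1, the main glutamate dehydrogenase that uses 2-oxoglutarate and NADPH, had signals of 13065 and 12720 in WT and 5515 and 5143 in nps1-13, and a log2 fold change of -0.80 (SE 0.05, limma adjusted p = 7.9e-07) when centred and -1.28 as deposited. Its isozyme gene GDH3 had 0.77 and 0.30. Of the 6 carriers of citrate, 2-oxoglutarate and other acids in the mitochondrial membrane, 3 rose and 3 fell when centred (0 and 4 as deposited). ODC1, an oxodicarboxylate carrier, had signals of 10603 and 9751 in WT and 2363 and 2524 in nps1-13, a log2 fold change of -1.58 (SE 0.06, limma adjusted p = 3.1e-08). YHM2, a citrate and oxoglutarate carrier, fell by 0.86 and the oxaloacetate carrier gene OAC1 by 0.61 when centred, while ODC2 had 0.51 when centred and 0.04 as deposited.

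The calls of the remaining TCA cycle genes depended on the scale, as did those of all genes. Among all genes, 42.6% were higher and 34.7% lower when centred, 9.41% and 64.3% as deposited, and 36.8% and 36.7% after cyclic loess normalization. Of 12 genes, 7 were higher and 0 lower when centred, 0 higher and 9 lower as deposited, and 2 higher and 6 lower after cyclic loess normalization, with log2 fold changes between -0.22 and 0.11 on the last scale. LSC2 and LSC1, the subunits of succinyl-CoA ligase, had the highest values of the list when centred, 0.38 and 0.35, but -0.09 and -0.13 as deposited. Of the 6 genes of pyruvate entry and anaplerosis 3 were higher and 0 lower when centred, 0 and 5 as deposited. PDA1, a subunit of pyruvate dehydrogenase, was at 0.27 and -0.21 and PDX1, another component of that complex, at 0.26 and -0.22. When centred, 1 of these 6 was called higher without WT replicate 1 or without WT replicate 2, and 1 was called lower without nps1-13 replicate 1. Of the 6 genes of the glyoxylate cycle and its partners, 4 rose and 1 fell when centred (1 and 2 as deposited). MDH2, the cytosolic malate dehydrogenase gene, rose by 0.65 when centred and 0.18 as deposited, and MLS1, malate synthase, had 0.57 and 0.10.

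**Figure D5:**
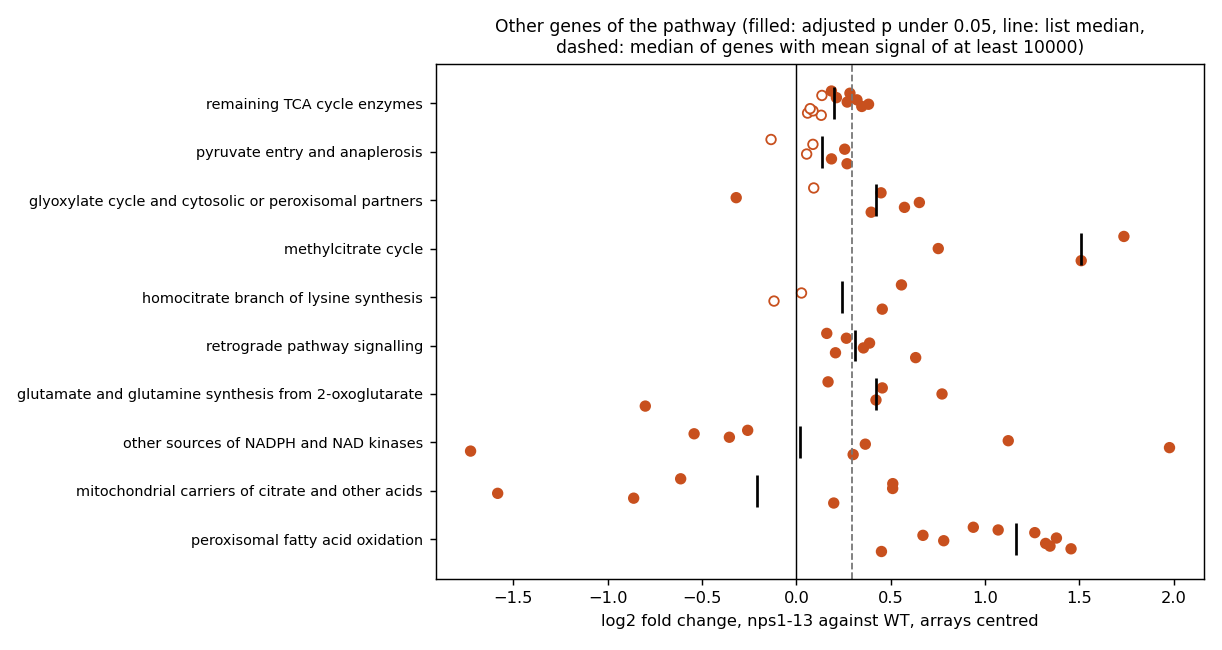
Log2 fold change, nps1-13 against WT with the arrays centred, of each of the 66 measured genes in the lists of the pathway; filled points passed limma at an adjusted p under 0.05, short lines mark list medians and the dashed line the median of genes with a mean signal of at least 10000 (0.30). The methylcitrate and peroxisomal lists lie to the right of the dashed line, at medians of 1.51 and 1.17, and the lists of NADPH supply and carriers spread to both sides.

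The branches that use chemistry like that of the citrate synthases also differed. Among all genes, 42.6% were called higher and 34.7% lower when centred, and 9.41% and 64.3% as deposited. After quantile and cyclic loess normalization, 36.4% and 36.8% of all genes were called higher. All 3 genes of the methylcitrate cycle, in which a citrate synthase acts on propionyl-CoA, rose on each of the 4 scales. CIT3, the mitochondrial citrate and methylcitrate synthase gene, had signals of 5112 and 4752 in WT and 10567 and 9647 in nps1-13 and a log2 fold change of 1.51 when centred (SE 0.05, limma adjusted p = 9.2e-09). ICL2, the methylisocitrate lyase gene, rose by 1.74 and PDH1, the methylcitrate dehydratase gene, by 0.75. In the homocitrate branch of lysine synthesis, 2 of 4 genes were higher and 0 lower when centred, and 0 higher and 2 lower as deposited. LYS12 and LYS20, homoisocitrate dehydrogenase and a homocitrate synthase, had 0.56 and 0.46 when centred and 0.08 and -0.02 as deposited. LYS21, the other homocitrate synthase, had -0.12 and LYS4, homoaconitase, 0.027 when centred, neither past the test. The signals of LYS4 were 1798 and 1113 in WT and 1040 and 1034 in nps1-13, and leaving out WT replicate 1 put its centred difference at 0.30, leaving out WT replicate 2 at -0.25, each past the test. Of the 4 genes, 1 was called lower in either case.

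Of the 6 genes that signal to Rtg1 and Rtg3, all 6 were higher when centred, 0 were higher and 2 lower as deposited, and 5 were higher after cyclic loess normalization, where 42.6%, 64.3% and 36.8% of all genes were higher when centred, lower as deposited and higher after cyclic loess normalization. Their median was 0.31 when centred, against 0.065 for all genes and 0.30 for the bright genes. After cyclic loess normalization it was 0.17, against -0.0017 for all genes and 0.015 for the bright genes. RTG2, MKS1, LST8 and GRR1 are not bright, with mean signals of 4508, 2089, 3424 and 2860 in WT. Without WT replicate 1 or nps1-13 replicate 1, 4 of the 6 were called higher. RTG2, the sensor that relieves the inhibition of Rtg1 and Rtg3, had signals of 4637 and 4378 in WT and 5419 and 4660 in nps1-13, and a log2 fold change of 0.63 when centred (SE 0.05, limma adjusted p = 4.2e-06) but 0.16 as deposited, where it did not pass. BMH2, a 14-3-3 protein that acts against Rtg3, had 0.39 when centred and -0.09 as deposited. The list thus holds genes that act for and against Rtg1 and Rtg3, and its counts give no direction of the signalling.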

How the data were processed

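The deposited intensity values are linear signals per probe set of 5558 probe sets on 4 arrays, made by the authors in GCOS and scaled globally, although the array medians still differ. Of the probe sets, 5345 have 1 gene symbol in the platform annotation, 0 several, and 213 are unnamed here; gene IDs were matched to the RefSeq table (R64), and for 2 genes the brighter of the probe sets was used. Log2 signals were centred on the array median and fitted in R 4.3.3 with limma 3.58.1 (lmFit, eBayes with a trend) over 5343 genes, with Benjamini-Hochberg adjustment and a threshold of 0.05. No set test was run. Scaling alternatives were the deposited scale, quantile normalization and cyclic loess, the last chosen after seeing the data. Tables and figures were made in Python 3.11.15 with pandas 2.3.3 and matplotlib 3.10.9.

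The members and gene lists were chosen with earlier results of these data known. Named are all members, of each list the 2 called genes with the largest difference (all genes in lists of up to 4), and for IDH2 and IDP3 the 3 genes most alike. The number of arrays limits the precision, and p-values measure only the spread between arrays. Sequences of the members were not used here, and scanner files were not analysed here.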

Additional observations from a re-analysis of the deposited data

How the results depend on the processing

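The scaling of the arrays changed more than any other choice. The counts when centred, 2274 genes higher and 1853 lower, were 503 and 3435 as deposited; among members they went from 7 and 2 to 2 and 5, and among the other pathway genes from 46 and 9 to 16 and 31 as deposited, with 21 lower after quantile normalization and 20 after cyclic loess normalization. CIT1 turned from 0.31 to -0.17 as deposited, -0.065 after quantile normalization and -0.018 after cyclic loess normalization, and ACO1 and IDP2 turned to -0.21 and -0.050 as deposited. On the deposited scale LSC2, LSC1, PDX1, LYS20, LYS4 and BMH2 turned to -0.092, -0.13, -0.22, -0.020, -0.45 and -0.087, and PDA1 to -0.21, with -0.13 after quantile normalization and -0.068 after cyclic loess normalization. LYS4 was at 0.30 without WT replicate 1, at -0.25 without WT replicate 2 and at -0.016 without nps1-13 replicate 2. The turns on the deposited scale follow from the 0.47 that centring adds to every log2 difference, which is more than the centred value of each of these genes. The cause of the other turns was not tested. Leaving out 1 array in turn gave 1957 to 2226 genes higher and 1621 to 1816 lower, 7 members higher and 2 to 3 lower, and 39 to 46 other pathway genes higher and 9 to 10 lower. With the replicate number as a block, the counts were 2255 higher and 1814 lower, and 7 and 2 among members, while numbers paired crosswise, chosen after seeing the data, gave 2307 and 1924; deviations of same-numbered arrays correlated across genes with r = -0.12, so the numbers are not taken as pairs. Without the trend, with filters at a mean signal of 100 or 200, with 32 added, or with the mean of probe sets, the counts over all genes, members and other pathway genes stayed within 1.5 times, and among single lists 1 gene of pyruvate entry and anaplerosis was called lower, against 0, with the filter at 200.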

Other observations

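Pairs of isozyme or related genes, all but CIT1 outside the members, were set against each other on each array after their values had been seen. They are given without a test. The log2 ratio of GND1 to GND2 was 1.11 and 1.18 in WT and -2.50 and -2.62 in nps1-13, so that the ratio was 13.0-fold lower in the mutant. The ratio of ODC1 to ODC2, the oxodicarboxylate carriers, was 0.73 and 0.75 in WT and -1.39 and -1.32 in nps1-13, and that of GDH1 to GDH3 1.41 and 1.46 in WT and -0.15 and -0.12 in nps1-13. In each of these 3 pairs the ratio on both nps1-13 arrays lay below that on both WT arrays. How many of all gene pairs are without overlap was not computed.

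For other isozymes, and for the related lyase genes ICL1 and ICL2, the changes were smaller. The log2 ratio of ICL1 to ICL2 changed by -1.34, that of CIT1 to CIT3 by -1.20 and that of MDH2 to MDH3 by 0.97. The ratio of PYC1 to PYC2, the pyruvate carboxylases, changed by 0.22, with 0.060 to 0.38 over the 4 pairings of arrays. PYC1 had the highest signal of each WT array, 23097 and 23318. Whether the signal still follows the transcript level there was not tested.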
